A study of Mus musculus with 16 samples.

Results

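Opsins are the light-sensing proteins of the eye. The opsins described here are Opn1sw, Opn1mw, Opn4, Opn3, Opn5 and Rrh, chosen by their symbols as 6 of the 25905 genes in the deposited table of all genes, and all 6 were found there. The retinas came from 16 male C57BL/6 mice, wild type and labelled as 10 weeks old. By the study's account this was the age at the flight, and the mice were several weeks older when the eyes were collected. Of these mice, 8 were flown on the International Space Station and returned to Earth alive (spaceflight), and 8 were kept on Earth in the same housing hardware (ground control). RNA from the retina of each right eye was sequenced in a library of its own.

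An opsin is a receptor with a membrane-spanning bundle of helices that holds a form of retinal as its chromophore, and light changes the shape of that chromophore. Cone opsins start the phototransduction cascade through transducin, which closes cation channels in the outer segment. Mouse cones carry a short-wavelength opsin, a medium-wavelength opsin or both, in proportions that shift between the upper and lower retina. Melanopsin (Opn4) works in a small class of retinal ganglion cells that set the body clock and the pupil, through a Gq protein and phospholipase C. Opn3 (encephalopsin) and Opn5 (neuropsin) are opsins found in and beyond the eye, and Rrh (peropsin) is an opsin of the retinal pigment epithelium.

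The values are the authors' mean normalized counts, 1 per gene over all 16 libraries, in which each library's count was divided by a size factor. This mean comes with no error and no group. The columns of the deposited count tables carry a laboratory code that no label pairs with a mouse. The opsins in spaceflight against ground control are therefore not analysed here. The spread between libraries and the depth of each library do not need that pairing, but were not computed, and no test was run. The means of all genes summed to 6995810, and 6238 genes were listed at 0. In a whole retina, fewer cells of a type and less RNA per cell cannot be told apart.

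The promoter sequences of the cone opsins and of Opn3 are shown first, as examples that differ in base composition. Each is the 300 bases from 250 before to 50 after the RefSeq transcription start in the reference build GRCm38.p6, read in the direction of the gene. Capitals mark matches on either strand to AGGTCA (the half-site bound by many nuclear receptors), TATAAA (the TATA box), GGGCGG (the GC box bound by Sp-family factors) or TAATCC (a site of the photoreceptor homeodomain factor CRX). The Opn1sw sequence lies at chr6:29380464-29380763 on the minus strand, the Opn1mw sequence at chrX:74127216-74127515 on the plus strand, and the Opn3 sequence at chr1:175692583-175692882 on the minus strand.
Opn1sw: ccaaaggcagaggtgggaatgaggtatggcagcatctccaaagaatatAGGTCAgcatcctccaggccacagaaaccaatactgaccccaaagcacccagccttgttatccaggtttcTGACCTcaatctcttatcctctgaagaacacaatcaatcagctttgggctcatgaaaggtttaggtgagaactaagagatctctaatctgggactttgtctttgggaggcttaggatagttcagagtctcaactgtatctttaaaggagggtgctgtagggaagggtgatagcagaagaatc
Opn1mw: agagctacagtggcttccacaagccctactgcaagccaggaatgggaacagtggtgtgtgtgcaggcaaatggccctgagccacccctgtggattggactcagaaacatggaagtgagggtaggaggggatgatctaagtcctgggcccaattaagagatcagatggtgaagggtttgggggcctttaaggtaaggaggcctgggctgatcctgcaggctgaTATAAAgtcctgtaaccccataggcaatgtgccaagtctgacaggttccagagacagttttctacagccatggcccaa
Opn3: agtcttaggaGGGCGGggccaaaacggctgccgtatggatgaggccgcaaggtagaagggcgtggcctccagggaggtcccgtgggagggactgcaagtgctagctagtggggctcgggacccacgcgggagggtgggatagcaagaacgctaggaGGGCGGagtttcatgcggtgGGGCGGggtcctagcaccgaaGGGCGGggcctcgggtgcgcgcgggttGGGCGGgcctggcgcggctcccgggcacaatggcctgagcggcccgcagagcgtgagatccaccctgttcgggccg

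The cone opsin promoters held no CpG dinucleotide, whereas that of Opn3 held 28. The median of the 32851 promoters in the reference table was 7, and the share that held none was not computed. The 28 of Opn3 lay above 85.8% of promoters. The Opn3 promoter was 70.0% G and C, above 90.4% of all promoters, against 46.0% for Opn1sw and 53.0% for Opn1mw. In Opn1mw the TATA box match covered positions -28 to -23 from the start, and 13.6% of all promoters held this motif somewhere in the window. In Opn1sw the half-site AGGTCA was matched at -202 to -197 and, on the opposite strand, at -132 to -127, and 16.3% of promoters held it. The GC box was matched 5 times in Opn3, the nearest to the start at -26 to -21, and 35.7% of promoters held at least 1 match.

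The motif TAATCC was matched in none of the 5 opsin promoters in the table, and in 7.06% of all promoters. The shorter core GATTA, whose reverse complement overlaps the first letters of TAATCC, was matched in Opn1sw at -49 to -45 and in Rrh at -240 to -236, and in 22.0% of promoters. The Rrh promoter (chr3:129822456-129822755, minus strand) was low in G and C at 38.7%, with 4 CpG and a TATA box match far from the start, at -231 to -226. The Opn4 promoter (chr14:34600093-34600392, minus strand) was 53.7% G and C with 4 CpG, and held no match marked in capitals. Opn4 had a level near that of Opn3, but its promoter was close in G and C to that of Opn1mw. Whether promoter composition goes with level was not tested. The motif CCAAT, also searched on both strands, was matched once each in Opn1sw, Rrh and Opn4 and at 2 positions in Opn1mw, and 37.4% of promoters held it. These matches describe letters in the window and do not show that a factor binds there.

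**Figure D1:**
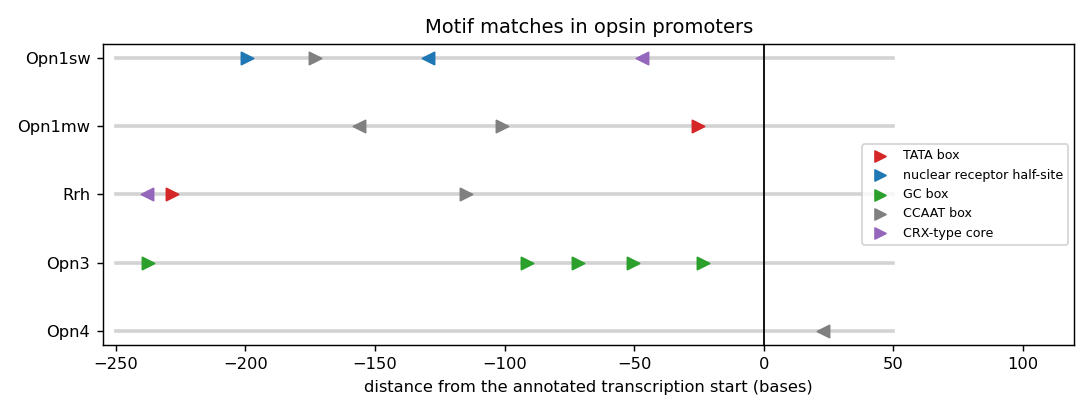
Motif matches in the promoters of 5 opsins, drawn against the distance in bases from the annotated transcription start, with 1 line per gene. Triangles are single matches and point right on the gene's strand and left on the opposite strand; Opn3 has 5 GC box matches, and Opn1mw has a TATA box match from -28 to -23.

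The cone opsins made up 96.4% of the summed mean normalized count of the 6 opsins. Opn1sw, the short-wavelength cone opsin, had a mean normalized count of 2800, which ranked 333 among the 25905 listed genes and lay above 98.3% of the 19667 genes above 0. Opn1mw, the medium-wavelength cone opsin, had a mean normalized count of 1415 at rank 869, above 95.6% of those genes. Both stood far above the median gene above 0, which had a mean normalized count of 41.8.

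Rrh had a mean normalized count of 127, at rank 7149 and above 63.7% of the genes above 0. Opn3 had a mean normalized count of 15.3 and Opn4 one of 14.3, at ranks 11629 and 11734. Both lay under the median of the genes above 0, and, with the genes at 0 included, above 55.1% and 54.7% of all listed genes. Opn5 had a mean normalized count of 0.858, at rank 16310, and lay above 17.1% of the genes above 0. A mean under 1 is less than 1 normalized read per library. The levels of the 6 opsins thus ran from among the most abundant genes of the retina to nearly undetected.

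Because a longer transcript yields more reads, levels were also divided by transcript length, here the longest protein-coding transcript of each gene in GENCODE M21 (GRCm38). Values per kilobase are on this scale unless coding length or a counted record is named. Per kilobase, Opn1sw was at 1162 and Opn1mw at 1148, a ratio of 1.012, whereas the mean normalized counts themselves had a ratio of 1.978. The Opn1sw transcript is 2410 bases long with 1038 coding bases. The longest coding transcript of Opn1mw is 1233 bases long with 1167 coding bases. The transcript of its counted record is 1227 bases long with 1077 coding bases. Coding length for both genes is that of the transcript of the counted record. Divided by coding length, Opn1sw was at 2697 and Opn1mw at 1314 per kilobase, a ratio of 2.053. The 2 cone opsins were thus level with each other per kilobase of transcript and apart by the other scales. The spread between mice was not computed, so their order was not set against replicate error.

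Rrh stood at 72.2 per kilobase of transcript, Opn3 at 8.02, Opn4 at 6.65 and Opn5 at 0.450. The median of the genes above 0 was 20.6 on this scale. Opn1mw was 15.9-fold above Rrh, Rrh was 9.004-fold above Opn3, and Opn4 was 14.8-fold above Opn5. Opn3 was 1.21-fold above Opn4, a pair whose order likewise was not set against replicate error. The order of the 6 opsins was the same with no length, by transcript length and by coding length.

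**Figure D2:**
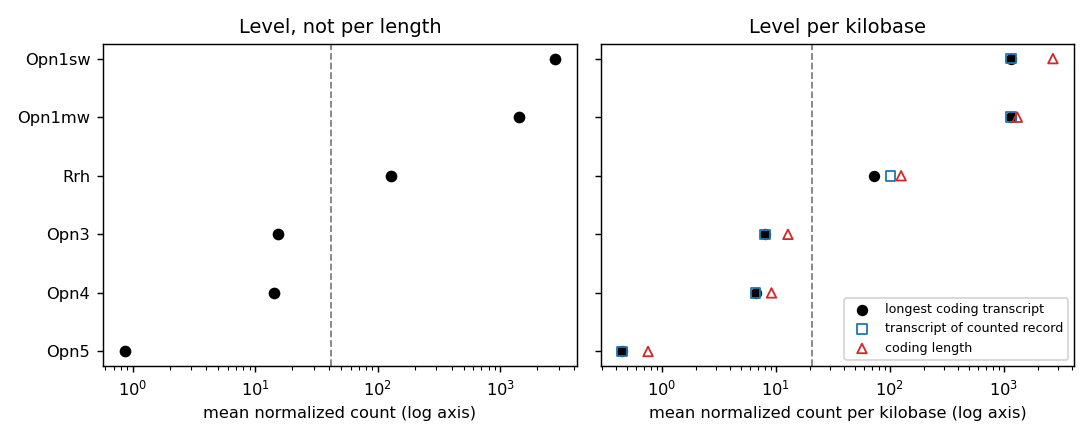
Mean normalized count of each opsin over all 16 libraries (left) and the same value per kilobase by 3 definitions of length (right), both on log axes, with 1 row per gene. Dashed lines mark the median of genes above 0, at 41.8 and, for the longest coding transcript, 20.6; Opn1sw and Opn1mw coincide per kilobase of transcript and separate by coding length.

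The count tables list reads per transcript record, with reads that match several records set apart. Opn4 has 2 records, and each of the other 5 opsins has 1. The 2 Opn4 records match the GENCODE isoforms of 2156 and 2075 bases, which share most of their sequence. Of the 2082 stretches of 75 bases in the longer isoform, 1288 (61.9%) also occur in the shorter, and 794 occur in the longer alone. In the shorter isoform, 64.4% of the stretches are shared and 713 are its own.

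Across the table, genes with several records had a lower median. It was 12.9 for the 22086 genes with 1 record and 0.652 for the 2704 genes with 2, and 51.7% and 24.96% of these genes respectively reached a mean of 10. Opn4 lay at the 50.7th percentile of the genes with 1 record and at the 77.7th of those with 2, zeros included. The value of 14.3 for Opn4 is thus that of a gene counted on 2 overlapping records. Whether reads of Opn4 were lost in counting was not tested.

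**Figure D3:**
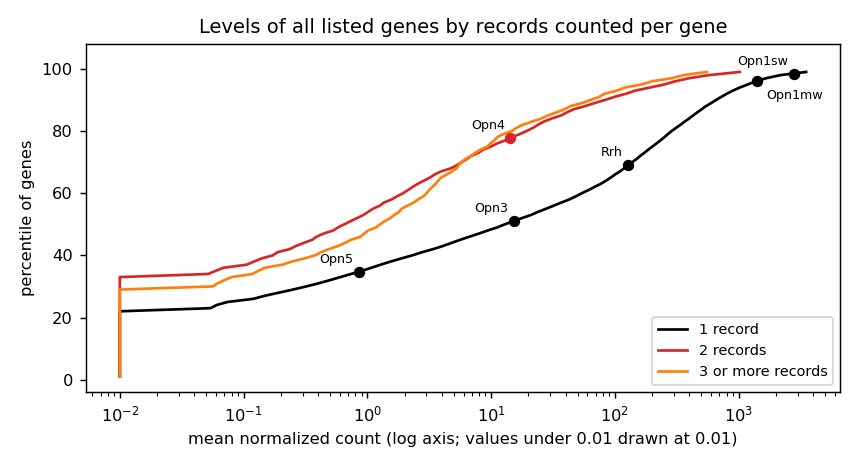
Percentile of genes against mean normalized count (log axis) for genes with 1, 2 and 3 or more counted transcript records, with the 6 opsins drawn on the curve of their own class. The curves for 2 and for 3 or more records lie to the left of that for 1 record; Opn4 sits at the 77.7th percentile of genes with 2 records.

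Reads could also be shared with other genes. In Opn3, 387 of 1839 stretches of 75 bases (21.0%) also lie in transcripts of Chml, a gene on the same strand that encodes a Rab escort protein and had a mean normalized count of 133. How many reads that fit both genes were set apart in counting was not tested. In Opn1sw, 318 of 2336 stretches (13.6%) occur on the opposite strand in transcripts of Calu, which had a mean normalized count of 26.4. The libraries kept strand, and whether the counting used it is not given in the sources used here. In the shorter Opn4 isoform, 56 of 2001 stretches (2.80%) occur on the opposite strand in Gm49012. The counted transcripts of Opn1mw, Opn5 and Rrh shared no such stretch with another gene.

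Genes that neighbour the opsins varied in level. Gar1, 2325 bases from Rrh and on the same strand, had a mean normalized count of 130 beside 127 for Rrh. Lrit3, which lies 378 bases beyond one end of Rrh in the annotation and encodes a synaptic protein of the retina, had a mean normalized count of 362 on the other side of Rrh. Ccdc136, 7841 bases from Opn1sw, had a mean of 1534 against 2800. Tex28, 184 bases from Opn1mw, had a mean of 0.469 against 1415, and Kmo, 305 bases from Opn3, was listed at 0.

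The cone opsins were set beside 16 genes of the cone cascade, some of which rods use too. Per kilobase of transcript, 4 of the 16 lay above both Opn1sw and Opn1mw, and the median was 632. The highest was Rgs9, which speeds the shut-off of transducin, at 5894, and the gene nearest the median from below was Gnat2, the cone transducin alpha subunit, at 572. The lowest was Pde6c, the catalytic subunit of the cone phosphodiesterase, at 0.0241, with a mean normalized count of 0.0699. By coding length, 5 of the 16 lay above Opn1sw and 8 above Opn1mw.

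Pde6c has 2 records, and whether this bears on its low value was not tested. Of the 16 cascade genes, 4 had several records, and both of those with a mean under 10, Pde6c and Gngt2, were among them. Rgs9, the highest of the list, has 2 records as well. Named after their values were seen, Arr3, the cone arrestin, was at 692 per kilobase, and the cone channel subunits Cnga3 and Cngb3 were at 41.9 and 50.4, each with 1 record. The 12 cascade genes with 1 record had a median of 731.

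The 12 transcription factors that set cone opsin choice and photoreceptor fate had a median of 43.0 per kilobase, and 10 of the 12 lay under both cone opsins. The highest was Neurod1, a photoreceptor differentiation factor, at 1772, and the lowest was Rxrg, a retinoid receptor of cones, at 7.55. Nrl, a rod fate factor, stood nearest the median from below at 35.5. Rxrg and Nrl were among the 6 of the 12 with several records, and none of the 12 had a mean normalized count under 10.

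The 12 genes of the melanopsin ganglion cell and its cascade had a median of 14.2 per kilobase, and 9 of them lay above Opn4. The highest was Plcb4, the phospholipase C of the melanopsin cascade, at 276, and Adcyap1, the neuropeptide PACAP, was nearest the median from below at 11.4. The lowest was Eomes, a transcription factor that marks these cells, which was listed at 0 and has 2 records. The 11 general ganglion cell markers ranged from Rbpms, with 3 records, at 2.17 per kilobase to Thy1 at 997, with Slc17a6, a vesicular glutamate transporter, at the median of 163. Opn4 was counted on 2 overlapping records and 10 of the 12 genes of its cell's list on 1, and several of the 12, Plcb4 and the G protein subunits Gnaq and Gna11 among them, are used by many cell types. Opn4 lay under 10 of the 11 general ganglion cell markers.

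Of 15 pigment epithelium markers, 14 were listed by their symbols, and 6 of the 14 lay above Rrh per kilobase of transcript. The highest was Ttr, a thyroid hormone and retinol carrier, at 455, and the lowest was Stra6, a retinol transporter with 4 records, at 0.259. The median was 27.7, with Slc16a8, a lactate transporter, nearest it from below at 19.7. Named after its value was seen, Rgr, another opsin of the pigment epithelium and of glia, was at 82.0 per kilobase with a mean normalized count of 386, beside 72.2 for Rrh. By the transcript of its counted record, of 1250 bases, Rrh was at 102 per kilobase. Of the 14 markers, 3 have several records and 4 had mean normalized counts under 10. All 3 with several records were among these 4, and whether the record count bears on their values was not tested. Mean normalized counts over the list ran from 0.796 (Stra6) to 540 (Ttr). How much pigment epithelium each retina carried was not tested.

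The levels of a further 10 receptors of neurons in the retina were used as a scale. Per kilobase of transcript, none of the 10 lay above the cone opsins, 5 lay above Rrh and 6 above Opn4. By coding length, 1 of the 10 lay above Opn1mw, none above Opn1sw, 5 above Rrh and 7 above Opn4. The highest was Drd4, a dopamine receptor, at 651 per kilobase of transcript, and the lowest was Mtnr1b, a melatonin receptor, at 0.276. Hrh3, a histamine receptor, was nearest the median from below at 40.5. Opn5, at 0.450, was close to the bottom of this scale.

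**Figure D4:**
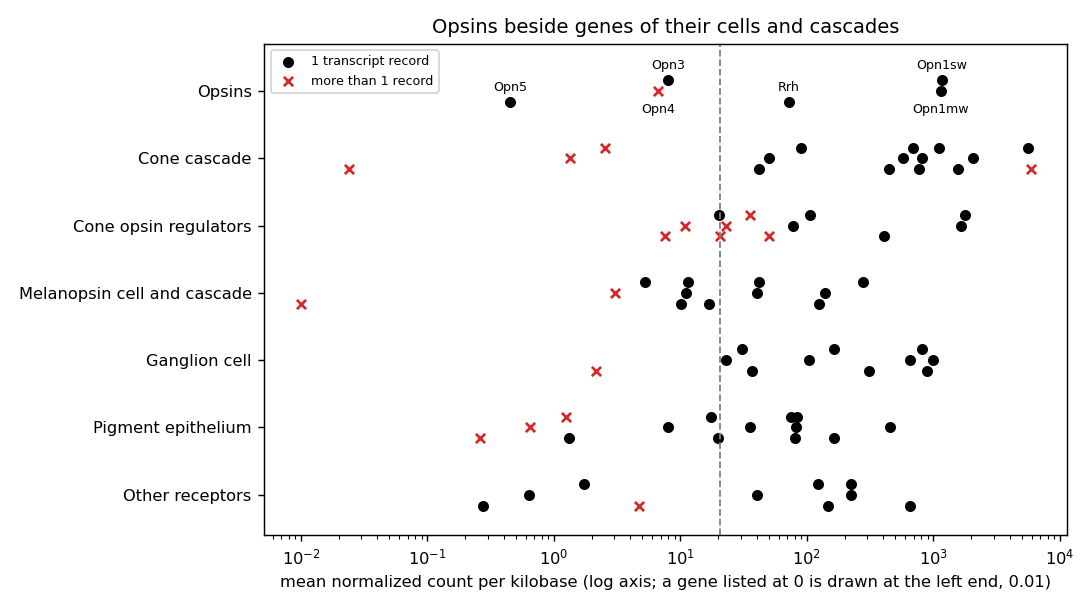
Mean normalized count per kilobase of transcript (log axis) for the 6 opsins and the genes of 6 lists, 1 point per gene, with genes of several records drawn as crosses. The dashed line marks the median of genes above 0, at 20.6. Of the 7 genes under 1 per kilobase, 4 are crosses, and 3794 of all 25905 listed genes have several records. Among the genes drawn, crosses make up 4 of 16 cone cascade genes, 6 of 12 regulators and 2 of 12 melanopsin genes. They make up 1 of 11 ganglion cell, 3 of 14 pigment epithelium and 1 of 10 other receptor genes. Whether the record count bears on level was not tested. Eomes, listed at 0, is drawn at the left end.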

How the data were processed

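Per the labels and the study's methods, 16 retinal libraries (8 spaceflight, 8 ground control) were made with a kit that keeps strand, trimmed with Trimmomatic, mapped with TopHat2 to an NCBI mouse build older than GRCm38, counted with HTSeq and compared with DESeq2 1.22.2 in R 3.5.1. The signal value used is the mean that the authors deposited for each gene over all libraries, of counts divided by size factors. How records were joined to genes is not given in the sources used here. The other columns of that table hold the authors' own comparison (fold changes, errors and p-values) and were not used.

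The 2 count tables hold 32 value columns whose names match no label. They were not used, so the planned edgeR quasi-likelihood test was not run, and depth and precision per sample were not computed. Only the record names of 1 table were used, to count records per gene.

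Lengths came from GENCODE M21 (GRCm38), joined by symbol for 23080 genes (89.1%), of which 2240 by an older symbol. Promoters came from RefSeq (GRCm38.p6), which held 5 of the 6 opsins. Coordinates here are those of the reference builds, not of the authors' mapping. Motif search was tested on simulated sequences. Python 3.11.15, pandas 2.3.3, numpy 2.4.6 and matplotlib 3.10.9 were used.

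All 6 opsins are named, and of each list the highest, the middle and the lowest gene per kilobase. The opsins and lists were chosen with earlier results of these data known. The use of the longest coding transcript, the record counts and the motifs were settled after seeing the data, the motifs with the promoters in view.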

Additional observations from a re-analysis of the deposited data

How the results depend on the processing

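No paired analysis was possible because no column of the count tables could be tied to a mouse. Because no column of the count tables could be tied to a mouse, the planned edgeR test was not run. Nor were its alternatives (DESeq2, no filter on low counts, a stricter threshold, each replicate left out). The comparison of protein identity was also not run. Ratios of neighbouring opsins were recomputed with other lengths, and in each case the order Opn1sw, Opn1mw, Rrh, Opn3, Opn4, Opn5 was the same. With no replicate spread computed, a ratio was taken as moved beyond 1.5-fold. By coding length the ratio of Opn1sw to Opn1mw moved from 1.012 to 2.053, and that of Opn1mw to Rrh from 15.89 to 10.45. With no length the ratio of Opn1sw to Opn1mw was 1.978. Added after seeing the data, the longest transcript of any kind, a retained intron of 3005 bases for Rrh, gave 27.14 for Opn1mw to Rrh and 5.271 for Rrh to Opn3, and the longest coding part of any transcript gave 2.224 for Opn1sw to Opn1mw. The transcript of the counted record and the shortest transcript with the longest coding part, also added, moved no ratio of neighbours beyond 1.5-fold. The percentiles of Opn1sw and Opn1mw moved by less than 10 points over other sets of genes. Over genes with a mean of at least 10, the percentile moved from 40.3 to 5.17 for Opn4, from 40.9 to 6.02 for Opn3 and from 63.7 to 42.2 for Rrh, and Opn5 was under that minimum. Over all listed genes it was 54.7 for Opn4, 55.1 for Opn3 and 37.0 for Opn5, the last from 17.1, since genes at 0 were then included. The low means of Opn4, Opn3 and Opn5 limit what can be said of them, and depth per library was not computed.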
